A study of Homo sapiens with 6 samples.

Results

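The genes described here are the intergenic long noncoding RNAs (lncRNAs) that carry a systematic LINC symbol, meaning LINC followed by digits only, in the annotation of the array platform. There were 458 such symbols among 14884 named symbols, and they were measured by 545 of the 53617 transcript clusters (probe sets summarised by gene) of the Affymetrix Human Gene 2.0 ST array. All 458 matched RefSeq by gene ID, under the same symbol and with the lncRNA biotype. Where a symbol had several transcript clusters, the one with the highest mean signal was taken. The arrays were made from MDA-MB-468 cells, a breast cancer cell line of the basal-like, triple-negative type, treated for 48 h with 15 nM of GapmeR#4, which targets the lncRNA NRAD1, or with 15 nM of a negative control GapmeR. GapmeRs are modified antisense oligonucleotides that pair with a chosen RNA and direct RNase H to cleave it. Total RNA from 3 GapmeR#4 and 3 control samples was measured on 1 array each, and every value is a log2 signal as deposited. Both groups received an oligonucleotide and a transfection reagent, only 1 targeting GapmeR and 1 cell line were used, and the samples are called biological replicates with no account of how cultures were separated, so the spread behind each p-value is that among these samples and may be technical. The question was which lncRNAs of this class differed after NRAD1 knockdown.

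Intergenic lncRNAs are transcribed by RNA polymerase II between protein-coding genes, and many are capped, spliced and polyadenylated like messenger RNAs but carry no long open reading frame. They are as a class less abundant, more tissue-restricted and less conserved than messenger RNAs, and many are held at low levels in the nucleus by the RNA exosome and by early transcription termination. Some act on neighbouring genes or on chromatin and others bind proteins or microRNAs, while most LINC symbols are only provisional names for transcripts with no established role. NRAD1 itself was formerly LINC00284. It now has a symbol of its own and is given only for orientation.

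Promoter sequences are shown for the 4 LINC genes below, a pair with similar promoters and 2 genes that passed the test. RefSeq has an entry for each, and no promoter was tested for a link to a change. LINC01002 and LINC01061 are on different chromosomes but carry nearly the same promoter. They belong to the brightest LINC signals of these cells and both had lower means after GapmeR#4. LINC00862 and LINC01094 were higher after GapmeR#4 and were the only genes with an entry among the 8 that passed the test. Each sequence runs 5′ to 3′ from 250 bases before to 50 bases after the annotated start (RefSeq, GRCh38.p14). In the first pair, capitals mark the 5 bases at which the genes differ within a shared stretch of 275 bases, of which 270 were identical (98.2%). The LINC01061 window lies 25 bases further downstream, so that its first base pairs with a later base of LINC01002. LINC01002 was read from chr19:202160-202459, minus strand, and LINC01061 from chr4:119410611-119410910, minus strand.
LINC01002: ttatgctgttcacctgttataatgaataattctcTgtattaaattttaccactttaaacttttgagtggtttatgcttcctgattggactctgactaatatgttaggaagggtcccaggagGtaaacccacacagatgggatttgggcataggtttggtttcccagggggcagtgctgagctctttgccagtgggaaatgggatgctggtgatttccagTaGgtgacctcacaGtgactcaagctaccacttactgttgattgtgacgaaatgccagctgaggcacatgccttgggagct
LINC01061: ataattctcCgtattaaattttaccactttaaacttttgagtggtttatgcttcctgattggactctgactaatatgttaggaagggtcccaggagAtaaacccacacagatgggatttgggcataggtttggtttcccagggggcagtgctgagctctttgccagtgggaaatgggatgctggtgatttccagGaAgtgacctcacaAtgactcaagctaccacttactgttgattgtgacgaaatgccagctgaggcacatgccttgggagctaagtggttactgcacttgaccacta
In the second pair, capitals mark the match to a searched motif, read here on the opposite strand. In LINC00862 (chr1:200373743-200374042, minus strand) this is the nuclear receptor half-site AGGTCA, and in LINC01094 (chr4:78645744-78646043, plus strand) it is the AP-1 site TGACTCA.
LINC00862: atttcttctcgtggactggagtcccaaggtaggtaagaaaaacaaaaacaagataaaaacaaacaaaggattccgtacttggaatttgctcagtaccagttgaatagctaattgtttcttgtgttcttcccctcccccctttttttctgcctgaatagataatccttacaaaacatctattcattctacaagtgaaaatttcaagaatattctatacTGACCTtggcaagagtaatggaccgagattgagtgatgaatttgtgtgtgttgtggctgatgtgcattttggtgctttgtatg
LINC01094: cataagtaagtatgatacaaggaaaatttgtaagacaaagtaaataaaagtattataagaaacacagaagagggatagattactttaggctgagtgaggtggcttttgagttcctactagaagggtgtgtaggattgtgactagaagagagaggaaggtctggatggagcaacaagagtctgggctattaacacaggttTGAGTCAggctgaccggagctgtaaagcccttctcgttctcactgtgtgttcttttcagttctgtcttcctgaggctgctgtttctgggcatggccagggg

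Of the 458 LINC symbols, 326 had a promoter in the RefSeq table, and their windows were poorer in G and C than those of other genes. The median GC content was 49.3% over the LINC promoters, against 62.7% over 15843 protein-coding promoters and 58.3% over all 27305 promoters. The median number of CpG dinucleotides per window was 5, 22 and 14 in the same sets. Within the class the brighter symbols had the richer promoters, with a median GC content of 52.7% and 7 CpGs in 211 LINC symbols with a log2 signal above 3 in either group, and 45% and 3 CpGs in 115 dimmer ones. The 4 printed promoters were below the LINC median, with 45% for LINC01002, 45.7% for LINC01061, 37.3% for LINC00862 and 43.7% for LINC01094. The GC box GGGCGG, searched on both strands like every motif here, was in 24.5% of LINC promoters and 44.6% of all promoters, and in none of the printed 4. The TATA box TATAAA was in 15.0% and 12.0%, the CCAAT box CCAAT in 33.7% and 35.7%, the AP-1 site TGACTCA in 7.98% and 4.92%, and the half-site AGGTCA in 24.5% and 13.9%. LINC01002 and LINC01061 each held 1 CCAAT box, 1 AP-1 site and 1 half-site. A match describes letters in the window and not binding.

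LINC RNAs were dim in these cells. The median of their mean log2 signals over the 6 arrays was 3.24, against 3.97 for all transcript clusters, and 131 of the 458 LINC symbols lay above the latter value. A group mean above 3 in at least 1 group was reached by 281 symbols, and 177 stayed at or below 3 in both. The closest on either side of this limit were LINC00359, with means of 3.00 in GapmeR#4 cells and 2.87 in control cells, and LINC00608, with 3.00 (just under the limit before rounding) in GapmeR#4 cells and 2.97 in control cells. Of the 281, 254 were above 3 in both groups, 17 in GapmeR#4 cells only and 10 in control cells only. The last 27 passed the limit through the group in which they were higher, so their direction is fixed by the limit and is not read as a result. A mean signal above 6 was reached by 28 LINC symbols, above 8 by 8 and above 10 by 1, LINC00987.

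On all arrays the median signal over all transcript clusters lay between 3.96 and 4.01. The basal marker EGFR was high, with means of 10.22 in GapmeR#4 cells and 10.58 in control cells, and of 7 basal markers listed the 3 measured under a symbol had means of 5.44 to 10.22 in GapmeR#4 cells and 5.55 to 10.58 in control cells. Of 4 measured luminal markers, the hormone receptor genes PGR and ESR1 were low, with 2.51 and 3.85 in GapmeR#4 cells and 2.61 and 4.11 in control cells, while the transcription factor genes FOXA1 and GATA3 were not, with 7.09 and 8.13 in GapmeR#4 cells and 7.05 and 7.82 in control cells. NRAD1 had 2.96, 2.99 and 2.90 on the GapmeR#4 arrays and 3.43, 3.46 and 4.01 on the control arrays. Each GapmeR#4 array lay below each control array, and a 2-sided exact permutation test gave p = 0.1, which 3 arrays against 3 cannot go below. The log2 change, GapmeR#4 minus control as throughout, was -0.69 (standard error 0.17, unadjusted p = 0.00437 and adjusted p = 0.0908 from limma). The targeted RNA was thus lower before adjustment but did not pass 0.05 after adjustment over all transcript clusters. Its mean in GapmeR#4 cells was 2.95, and changes are compressed in signals this dim. The paper reports knockdown of this RNA by quantitative PCR.

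Few LINC RNAs differed between the groups. With limma's p-values adjusted over all 53617 transcript clusters, LINC01235, LINC00467, LINC00174, LINC01446 and LINC01347 were lower after GapmeR#4 at the 0.05 level and LINC01094, LINC00862 and LINC00624 were higher. These are 8 of the 281 symbols above 3, or 2.85%, against 3.66% of all transcript clusters above 3, 4.79% of named symbols above 3 and 2.56% of all transcript clusters. A share this near to, or below, the background is no result about LINC RNAs as a class. In all 5 were lower and 3 higher, where 2.05% and 1.61% of all transcript clusters above 3 were lower and higher. Of the 8, LINC00174, LINC01446 and LINC00624 were above 3 in a single group, which fixed the sign of their change, so these counts support no direction. Among the 254 symbols above 3 in both groups, 3 were lower and 2 were higher (1.97%). Among the 177 dimmer symbols 0 passed in limma, 8 had an unadjusted p under 0.05 (6.25% of all dim transcript clusters did) and the lowest adjusted p was 0.0561 (LINC01907), against a background of 0.189% called among dim transcript clusters. The methods' t-test gave 0 after adjustment over all 458.

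Over the 281 brighter symbols, 138 changes were negative and 143 positive, and their median was 0.00744 on the log2 scale, against 0.0104 over all transcript clusters above 3. The middle 50% lay between -0.15 and 0.13. The median size of a change, without its sign, was 0.14 in LINC symbols and 0.17 in 12229 other named symbols above 3. An unadjusted p under 0.05 from limma was reached by 45 (30 lower and 15 higher, 16.0%, against 21.7% of all transcript clusters above 3, 11% lower and 10.7% higher), and the groups did not overlap in 62 (36 lower and 26 higher, 22.1%, against 28.6%, 14.3% lower and 14.4% higher). These shares were larger in brighter classes, among LINC symbols and other genes alike, so both were set side by side at like signal. Among symbols with a mean signal between 3 and 4, the groups did not overlap in 14.5% of 138 LINC symbols and in 15.7% of 1931 other named symbols, and between 4 and 5 in 21.6% of 74 and 20.1% of 2396. Between 5 and 6 the shares were 22.2% of 27 and 37.4% of 2226, between 6 and 7 they were 42.9% of 14 and 46.7% of 2024, and above 7 they were 57.1% of 14 and 53.1% of 3510. Genes are not replicates, and these shares were not tested.

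**Figure D1:**
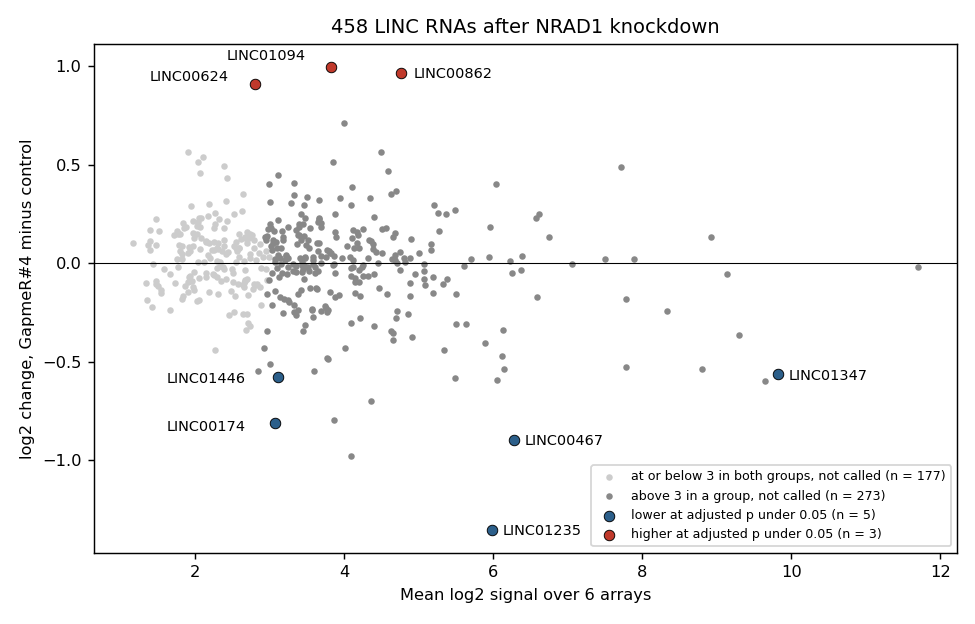
Log2 change (GapmeR#4 minus control) of each of the 458 LINC symbols against its mean log2 signal over 6 arrays, 1 point per symbol. Most points lie close to 0, and the 8 coloured ones passed an adjusted p under 0.05, with LINC01235 at -1.35 as the lowest and LINC01094 at 1.00 as the highest.

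**Figure D2:**
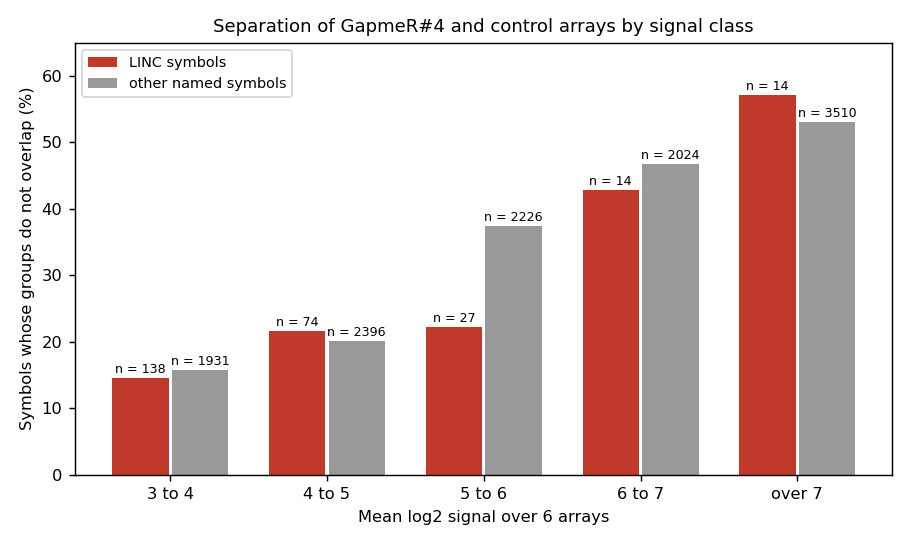
Share of symbols (percent) whose 3 GapmeR#4 arrays all lay on 1 side of the 3 control arrays, by class of mean log2 signal, for LINC symbols and for other named symbols, with the number of symbols above each bar. The LINC share was 14.5% in the dimmest class and 57.1% in the brightest, and the bars of other named symbols run from 15.7% to 53.1%.

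Among the 458 symbols, LINC01235 (transcript cluster 17092486, chromosome 9) had the largest decrease. It lies beside NFIB, the gene of a nuclear factor I transcription factor. Its log2 signal was 5.74, 4.90 and 5.26 on the GapmeR#4 arrays and 6.48, 6.77 and 6.71 on the control arrays. The groups did not overlap, with GapmeR#4 replicate 1 nearest to the control arrays. The log2 change was -1.35 (standard error 0.21, adjusted p = 0.0285 from limma), a 2.56-fold difference and the only one past 2-fold among the 458 symbols. LINC00467 (16677153, chromosome 1), known from neuroblastoma as a gene repressed by MYCN, had 6.09, 5.79 and 5.62 on the GapmeR#4 arrays and 6.72, 6.71 and 6.75 on the control arrays. The control values were nearly the same and all GapmeR#4 values lay below them, a change of -0.90 on the log2 scale (standard error 0.14, adjusted p = 0.0254). LINC01347 (17057931, gene on chromosome 1 in RefSeq) was the brightest that passed. The symbol had 6 transcript clusters, and whether this one lies at the RefSeq gene was not tested. This transcript cluster had 9.41, 9.60 and 9.61 on the GapmeR#4 arrays and 9.99, 10.15 and 10.17 on the control arrays, again without overlap. Its log2 change was -0.56 (standard error 0.11, adjusted p = 0.0486 from limma).

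LINC00174 and LINC01446, both on chromosome 7, were close to the dim limit. LINC00174 (17058207) had 2.59, 2.74 and 2.66 on the GapmeR#4 arrays and 3.53, 3.52 and 3.38 on the control arrays, a change of -0.81 on the log2 scale (standard error 0.10, adjusted p = 0.0163). LINC01446 (17057868) had 2.83, 2.82 and 2.82 on the GapmeR#4 arrays and 3.35, 3.36 and 3.50 on the control arrays, a change of -0.58 (standard error 0.10, adjusted p = 0.0324). The groups of both were apart, and both were above 3 in control cells only, so that they were counted among the brighter symbols through the group in which they were higher.

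LINC01094 (16968237, chromosome 4), next to the annexin gene ANXA3, had the largest increase among the 458 symbols. Its log2 signal was 4.16, 4.44 and 4.38 on the GapmeR#4 arrays and 3.20, 3.28 and 3.50 on the control arrays. All GapmeR#4 values were above all control values, and the log2 change was 1.00 (standard error 0.13, adjusted p = 0.0172), or 1.99-fold. LINC00862 (16697674, chromosome 1), beside the zinc finger gene ZNF281, had 5.28, 5.18 and 5.27 on the GapmeR#4 arrays and 4.28, 4.23 and 4.33 on the control arrays. Its replicates were the closest of the 3 that rose, with SDs of 0.058 and 0.054 (n = 3 each). The adjusted p of LINC00862 was 0.00889 from limma, the lowest among the 458 symbols, at a change of 0.97 on the log2 scale (standard error 0.10). LINC00624 (16692334, chromosome 1), which lies between the chromatin remodeler gene CHD1L and the beta-catenin cofactor gene BCL9, had 3.31, 3.20 and 3.25 on the GapmeR#4 arrays and 2.18, 2.37 and 2.48 on the control arrays. The groups were apart by a change of 0.91 on the log2 scale (standard error 0.11, adjusted p = 0.0158), and since LINC00624 was above 3 in GapmeR#4 cells only, the higher group brought it past the brightness limit.

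The calls depended on single arrays. With 1 array left out, 4 of the 8 still passed without GapmeR#4 replicate 1 (LINC00862, LINC01094, LINC01235 and LINC00467), and 4 without control replicate 3 (LINC00862, LINC01094, LINC00624 and LINC00174). LINC00862 was the 1 that still passed without GapmeR#4 replicate 2, GapmeR#4 replicate 3 or control replicate 1, and 0 passed without control replicate 2, where its adjusted p was 0.0559 from limma. All 8 changes kept their sign each time.

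At the study's fold cutoff for these arrays, a change of more than 1.7-fold, with an unadjusted p under 0.05 from limma, 5 LINC symbols above 3 were lower and 3 were higher (2.85%, against 3.43% of all transcript clusters above 3, 1.68% lower and 1.76% higher). Of the 8 above, LINC01446 and LINC01347 had smaller folds, and LINC00892 and LINC00526 met the cutoff without passing the adjusted p. LINC00892 (17107323, chromosome X) had 4.04, 3.36 and 3.42 on the GapmeR#4 arrays and 4.68, 4.68 and 4.39 on the control arrays, a change of -0.98 on the log2 scale (standard error 0.20, adjusted p = 0.0547). It lies next to VGLL1, a cofactor of TEAD transcription factors, which had a log2 change of -0.47 (adjusted p = 0.0724). LINC00526 (16853623, chromosome 18) had 3.71, 3.53 and 3.16 on the GapmeR#4 arrays and 4.22, 4.58 and 3.99 on the control arrays, a change of -0.80 on the log2 scale (standard error 0.20, adjusted p = 0.0925). In both, the groups did not overlap but the GapmeR#4 arrays spread widely, with SDs of 0.38 and 0.28 (n = 3). Without GapmeR#4 replicate 1, LINC00892 had a log2 change of -1.20 and passed.

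**Figure D3:**
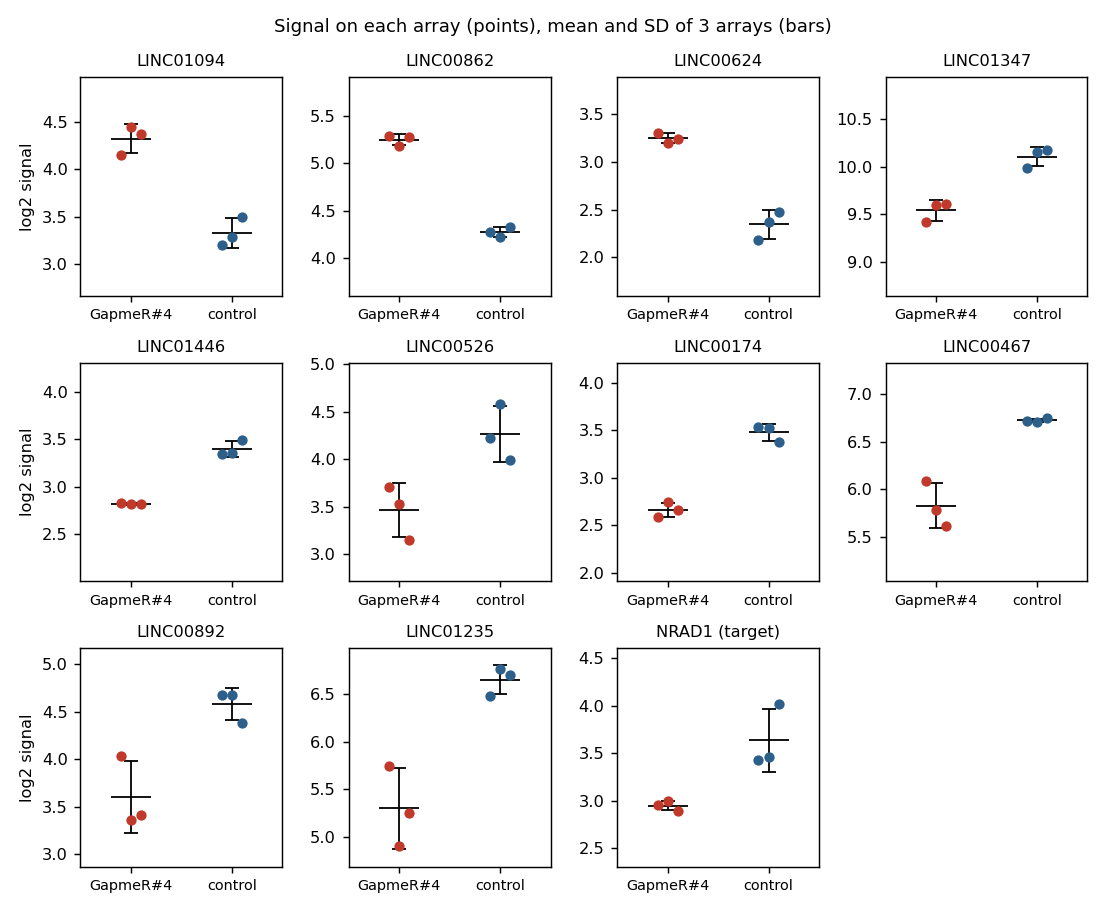
Log2 signal on each array (points) with the mean and SD of 3 arrays (lines) for the 10 LINC symbols that passed either rule and for NRAD1, GapmeR#4 on the left and control on the right of each panel. Each vertical axis has its own range. The groups do not overlap in any panel, and LINC01235, LINC00892 and LINC00526 have the widest GapmeR#4 spread.

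The 9 LINC symbols above 3 with an adjusted p between 0.05 and 0.1 were chosen for naming after their values were seen. Of these, 7 were lower and 2 were higher. The lower ones include LINC01002, LINC01000 and LINC01061, whose signals may not be independent, so these counts support no direction. LINC00963, first described in prostate cancer cells, had 5.84, 5.96 and 5.84 on the GapmeR#4 arrays and 6.42, 6.35 and 6.29 on the control arrays (log2 change -0.47, adjusted p = 0.0581). LINC00649 had a log2 change of -0.59 (adjusted p = 0.0966), and LINC00892 and LINC00526 are given above. The others with negative changes were LINC01002, LINC01000 and LINC01061, described next. LINC00324 had 4.74, 4.84 and 4.74 on the GapmeR#4 arrays and 4.00, 4.42 and 4.21 on the control arrays (log2 change 0.56, adjusted p = 0.0744), and LINC00689 had a log2 change of 0.39 (adjusted p = 0.0977). Another bright LINC RNA with a positive change was LINC00472, described in breast tumors as a favourable marker, with means of 7.95 in GapmeR#4 cells and 7.47 in control cells (log2 change 0.49, adjusted p = 0.109).

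Of the 10 brightest LINC symbols, 5 had similar negative changes and the others had changes between -0.24 and 0.13. LINC00987, on chromosome 12, was the brightest and hardly differed in the transcript cluster used. It had 11.62, 11.73 and 11.73 on the GapmeR#4 arrays and 11.71, 11.72 and 11.71 on the control arrays (log2 change -0.02, 95% interval -0.24 to 0.20). LINC00933 had a change of -0.05 (95% interval -0.30 to 0.19), LINC01278 one of 0.13 (-0.14 to 0.41) and LINC00265 one of 0.02 (-0.28 to 0.32). LINC00987 and LINC00933 each had a second, much dimmer transcript cluster, with mean signals of 4.65 and 3.44. In these the GapmeR#4 arrays lay above the control arrays, with log2 changes of 0.28 and 0.21 (adjusted p = 0.314 and 0.399 from limma). LINC00674 had -0.24 (95% interval -0.53 to 0.05). The other 5 were LINC01347, LINC01000, LINC00999, LINC01061 and LINC01002, with log2 changes of -0.37 to -0.60. In all 5 each GapmeR#4 array was below each control array. Of other named symbols with a mean signal above 7, 53.1% had groups without overlap, in either direction. LINC01000 had 9.15, 9.47 and 9.41 on the GapmeR#4 arrays and 9.84, 9.94 and 10.06 on the control arrays (adjusted p = 0.0589). LINC01002 had 7.45, 7.53 and 7.59 on the GapmeR#4 arrays and 7.98, 8.17 and 7.99 on the control arrays (adjusted p = 0.0516). LINC01061 averaged 8.53 ± 0.18 in GapmeR#4 cells and 9.07 ± 0.11 in control cells (SD, n = 3 each, adjusted p = 0.0828), and LINC00999 averaged 9.11 ± 0.10 and 9.47 ± 0.14 (adjusted p = 0.168). In the fit as designed only LINC01347 of these 5 passed. LINC01000, LINC01002 and LINC01061 also passed among the brighter 50% of transcript clusters and with an intensity trend and robust prior in limma.

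These 5 symbols, grouped after their values were seen and therefore not tested as a group, mostly had repeated measurements. LINC01002 had a single transcript cluster and the other 4 had several. Together they had 21 transcript clusters, 7 of them for LINC01061 and 6 for LINC01347. Of the 21, 20 had negative changes, between -0.30 and -0.76, and the median of all 21 was -0.54. An unadjusted p under 0.05 from limma was reached by all 20, and the groups did not overlap in 19. Over all transcript clusters above 3 these shares were 21.7% and 28.6%, and 3.66% passed an adjusted p under 0.05. Most of the 21 had a mean signal above 7. Of other named symbols above 7, the shares were 35.7%, 53.1% and 6.38%, in either direction. Among the 21, 2 passed an adjusted p under 0.05 from limma, the brightest of LINC01347 and 1 of LINC00999 (16713377, log2 change -0.48, adjusted p = 0.0499). The 1 positive change was that of a LINC01000 transcript cluster (17051194). It had means of 5.99 in GapmeR#4 cells and 5.82 in control cells, a change of 0.17 (adjusted p = 0.647 from limma). In 19 of the 21, GapmeR#4 replicate 1 was the lowest of its group, and without that array LINC01347 had a log2 change of -0.50 and did not pass. LINC01002 and LINC01061 carry the nearly identical promoters printed above. The signals of near-identical copies can be split or shared between transcript clusters, so the 21 values are not independent measurements, and how far they share probes was not tested.

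**Figure D4:**
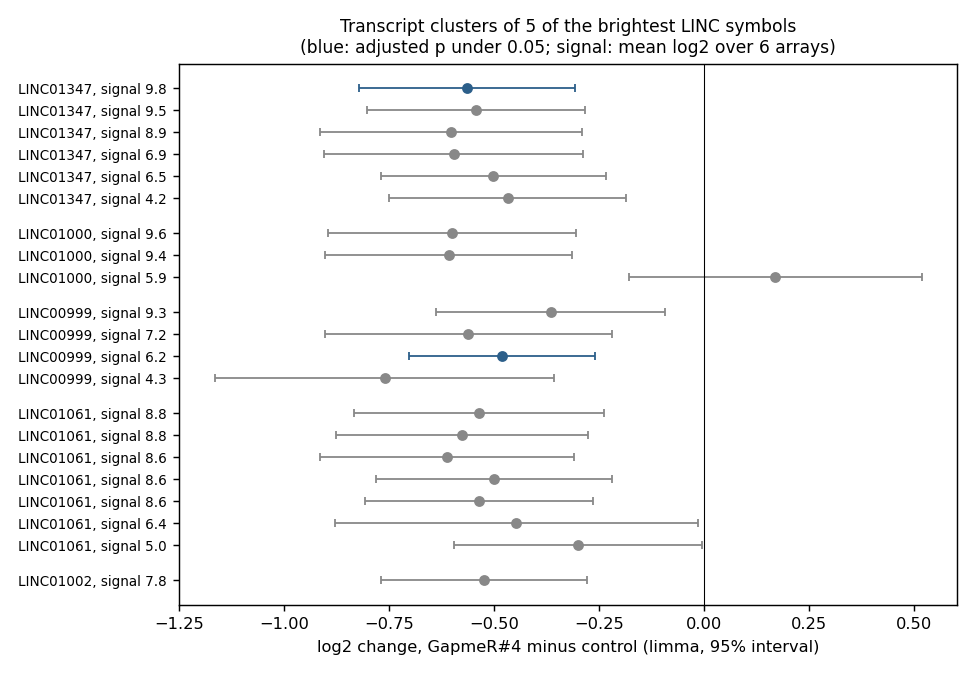
Log2 change (GapmeR#4 minus control) with its 95% interval from limma for the 21 transcript clusters of LINC01347, LINC01000, LINC00999, LINC01061 and LINC01002, each labelled with its mean log2 signal. All but 1 lie below 0, with a median of -0.54, and the 2 in blue passed an adjusted p under 0.05.

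More widely, 52 LINC symbols had more than 1 transcript cluster, 139 in all and up to 8 for 1 symbol. In 32 of the 52 all changes had the same sign, and in 17 of the 29 whose transcript clusters were all above 3. LINC01094 had a second transcript cluster with means of 2.65 in GapmeR#4 cells and 2.03 in control cells, a log2 change of 0.62 that did not pass (adjusted p = 0.0801) but had the direction of the first. LINC01094, LINC01347 and LINC00999 were the only symbols of the 52 with a transcript cluster that passed. Some repeats were copies: both transcript clusters of LINC00685 had the same value on each array, and the 7 of LINC01623 had changes between 0.06 and 0.08.

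The study's panel of lncRNAs enriched in triple-negative tumors lists 21 other LINC symbols, of which 9 were measured here under that symbol. LINC00162, which the paper also calls PICSAR, is not among the 9 but was measured under the latter name. PICSAR had means of 4.27 in GapmeR#4 cells and 4.23 in control cells (log2 change 0.04, adjusted p = 0.922 from limma). None of the 9 passed in limma, 0 had an unadjusted p under 0.05, the methods' t-test called 0, and 3 had groups without overlap (32.3% of all named symbols did). Their changes ran from -0.25 for LINC01354 to 0.31 for LINC00518. LINC01133, which binds the splicing factor SRSF6 in colorectal cancer cells, was the brightest, with 7.81, 7.80 and 7.45 on the GapmeR#4 arrays and 7.81, 7.82 and 7.97 on the control arrays (log2 change -0.18, 95% interval -0.49 to 0.13). LINC00518 had 3.39, 2.90 and 3.16 on the GapmeR#4 arrays and 2.76, 2.83 and 2.94 on the control arrays, which overlapped. LINC00839 had a change of -0.05 (95% interval -0.30 to 0.20), LINC00707 one of -0.10 (-0.38 to 0.19), LINC02159 one of 0.16 (-0.06 to 0.39) and LINC00511 one of -0.01 (-0.28 to 0.27). LINC00964 and LINC00880 were at or below 3 in both groups, with changes of -0.08 and -0.06.

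Since some intergenic lncRNAs act on genes beside them, the nearest protein-coding genes in RefSeq order were taken for each LINC symbol above 3. Protein-coding genes that overlapped the LINC gene were taken as well. A measured neighbour was found for 239 LINC symbols, giving 366 pairs with 336 different neighbours, and 6 of the pairs overlapped. By limma's adjusted p, 7 of these neighbours were lower and 12 were higher (5.65%, against 4.05% of all named symbols). In 184 of the 366 pairs both partners had changes of the same sign, close to an even split. The 8 LINC RNAs that passed had 14 measured neighbours. None of the 14 passed an adjusted p of 0.05, 5 had an unadjusted p under 0.05 from limma (23.1% of all named symbols did), 8 had the sign of their LINC gene and their median change was 0.03. Beside LINC01235, NFIB had means of 10.32 in GapmeR#4 cells and 10.48 in control cells (log2 change -0.16, adjusted p = 0.499) and the scaffold protein gene MPDZ had a change of -0.21 (adjusted p = 0.425). Beside LINC01094, ANXA3 had 0.27 (adjusted p = 0.210) and the kinase gene BMP2K 0.02. Beside LINC00862, ZNF281 had 0.22 (adjusted p = 0.302). The neighbours of LINC00624 differed in sign, with -0.46 for CHD1L (adjusted p = 0.0902) and 0.25 for BCL9 (adjusted p = 0.261). TRAF5 and RD3 beside LINC00467 had -0.11 and 0.01, and TPST1 and KCTD7 beside LINC00174 had 0.03 and -0.25. POM121L12 and VSTM2A beside LINC01446 had 0.17 and 0.30. CEP170 had 0.30 and lies beside the RefSeq gene of LINC01347, which need not be where the called transcript cluster lies.

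Pairs with a called neighbour were picked after their values were seen. LINC00460 lies beside EFNB2, which encodes the membrane-bound ligand ephrin-B2, and both changes were positive. LINC00460 had 4.88, 4.10 and 4.05 on the GapmeR#4 arrays and 3.20, 3.88 and 3.81 on the control arrays, without overlap but with a wide spread (log2 change 0.71, standard error 0.27, adjusted p = 0.242). EFNB2 had means of 7.11 in GapmeR#4 cells and 6.13 in control cells (log2 change 0.97, adjusted p = 0.0114). LINC00571 and UFM1, the gene of a ubiquitin-like modifier, went in opposite directions, with -0.55 (adjusted p = 0.109) and 0.71 (adjusted p = 0.0434). LINC00853 had a change of -0.11 beside PDZK1IP1, which fell by 1.00 on the log2 scale (adjusted p = 0.0181), and LINC00398 one of 0.18 beside ALOX5AP, which encodes a protein of leukotriene synthesis, with 1.41 (adjusted p = 0.0201).

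**Figure D5:**
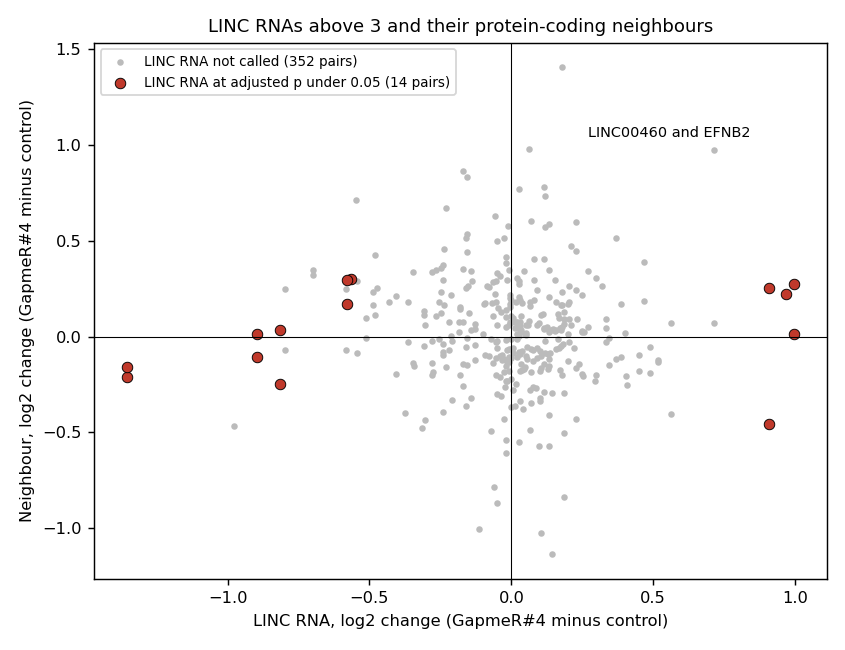
Log2 change of the neighbouring protein-coding gene against that of the LINC RNA (both GapmeR#4 minus control), 1 point per pair, 366 pairs. Red points are the 14 pairs of LINC RNAs that passed an adjusted p under 0.05. They lie far from 0 on the horizontal axis by selection, while their neighbours stay between -0.46 and 0.30.

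Well-studied lncRNAs without a LINC symbol, from a list written by hand, were set beside the LINC RNAs. By limma's adjusted p, 3 of 39 measured were lower and 1 was higher (10.3%, against 4.05% of all named symbols), and 20 had an unadjusted p under 0.05 (51.3%, against 23.1%). The median signal was 3.86 over the LINC symbols above 3 and 5.42 over this list, and the difference in their shares was not tested. Of other named symbols with a mean signal between 5 and 6, 6.51% passed and 29.7% had an unadjusted p under 0.05. The host transcript of miR-31, MIR31HG, had means of 4.02 in GapmeR#4 cells and 5.23 in control cells (log2 change -1.21, adjusted p = 0.0211), CASC15 had a change of -0.77 (adjusted p = 0.0439) and PCAT6 one of -0.67 (adjusted p = 0.0358). TERC, the RNA template of telomerase, was higher, with 8.63 and 7.91 (log2 change 0.72, adjusted p = 0.0324). MALAT1, an abundant nuclear lncRNA, had 11.62 and 11.60.

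Genes for the machinery that degrades or terminates lncRNAs were listed as well. A list of the nuclear exosome and its cofactors, which also held the exoribonuclease genes XRN1 and XRN2, had 20 measured genes. Of the 20, 1 passed as lower and 2 passed as higher, and 10 had an unadjusted p under 0.05 from limma. These shares were 15% and 50%, against 4.05% and 23.1% of all named symbols. The list was bright, with a median signal of 7.72, and other named symbols above 7 had shares of 6.38% and 35.7%. The median change was 0.16, and the difference in shares was not tested. ZC3H18, which links the cap-binding complex to the exosome, fell by 0.84 on the log2 scale (adjusted p = 0.0167 from limma), while the cap-binding partner SRRT rose by 0.62 (adjusted p = 0.0426) and the noncanonical poly(A) polymerase TENT4B by 0.61 (adjusted p = 0.0319). The catalytic subunit DIS3 had a change of 0.67 (adjusted p = 0.0604). The list for the Integrator complex and 3′ end processing had 11 measured genes, all of them INTS genes. INTS1, the largest Integrator subunit, passed, with means of 5.73 in GapmeR#4 cells and 6.95 in control cells (log2 change -1.22, adjusted p = 0.00786 from limma). That is 9.09%, against 4.05% of all named symbols. At an unadjusted p under 0.05 from limma 3 were lower and 4 were higher (63.6%, against 23.1%), among them INTS8 with 0.47 (adjusted p = 0.0648). The median signal of this list was 6.77. Of other named symbols with a mean signal between 6 and 7, 6.37% passed and 35.3% had an unadjusted p under 0.05. The median of this list was 0.12, with 7 of 11 changes positive. RNASEH1, the only gene of the RNase H list measured under a symbol, had a change of 0.07 (adjusted p = 0.775). Among 10 measured genes of lncRNA-binding nuclear proteins 0 passed in limma and 1 had an unadjusted p under 0.05 (10%, against 23.1%), HNRNPA1 with 0.42 (adjusted p = 0.199), and the median was 0.06.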

How the data were processed

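RNA from 3 GapmeR#4 and 3 control samples of MDA-MB-468 cells (15 nM, 48 h) was hybridised to Affymetrix Human Gene 2.0 ST arrays. Per the labels, Affymetrix Expression Console was used by the authors, who deposited log2 signals of 53617 transcript clusters. Its version, the normalization and the genome build were not given in the sources used here. Signals were used as deposited, with no filter, and samples were grouped by the submitters' labels. The table held 0 columns of other samples. Fold changes and p-values in the paper's supplementary tables were not used. Precision is limited by the number of arrays.

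All transcript clusters were fitted with limma 3.58.1 in R 4.3.3 (2 groups, 2-sided, no block), with Benjamini-Hochberg adjustment over all 53617. This replaced the methods' analysis of variance, which was kept as an alternative and is called the methods' t-test. Gene names came from GEO's platform annotation, which gives a single symbol to 16098 transcript clusters, and the brightest transcript cluster stood for each of 14884 symbols. Neighbours and promoters came from RefSeq tables (GRCh38.p14), read with Python 3.11.15, pandas 2.3.3 and Biopython 1.88. Neighbours were the nearest protein-coding genes without a LOC symbol on either side, and any that overlapped the LINC gene.

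The members and lists were chosen with earlier results of these data known. Genes were named by rule: NRAD1, LINC symbols past either threshold, the 10 brightest, those of the study's panel, those with several transcript clusters of which any passed, the neighbours of called ones, and up to 4 genes with the smallest p-values per other list. Others named were chosen after their values were seen, among them LINC00472, LINC00685, LINC01623, LINC01907, MALAT1 and the genes at the brightness limit.

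The alternatives tried were a fit to the brighter 50% of transcript clusters, a robust prior with an intensity trend in limma, quantile normalization, median centring of each array, a replicate block, array weights, the methods' t-test, the omission of each array in turn, averaging the transcript clusters of each symbol, a brightness limit of 4 and a 2-fold cutoff. The model fit was tested on simulated data.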

Additional observations from a re-analysis of the deposited data

How the results depend on the processing

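All 8 LINC RNAs that passed kept their direction under each alternative, though among the brighter 50% of transcript clusters 4 of them were not tested. Quantile normalization, median centring and the mean over transcript clusters left all 8 called. Against 5 lower symbols at an adjusted p under 0.05 from limma, there were 12 among the brighter 50%, 10 with an intensity trend and robust prior, 9 with array weights and 3 with a brightness limit of 4. The first of these tests fewer transcript clusters in a fit of their own. The limit of 4 keeps the same fit but counts 137 symbols in place of 281. For the brighter 50%, the trend with a robust prior and array weights the cause of the higher counts was not tested. Over all transcript clusters the main fit called 760 lower. The brighter 50% had 1466 of 26809, the trend with a robust prior 1273 and array weights 1052. The methods' t-test gave 0 lower and 0 higher, and over all transcript clusters it called 4 lower and 8 higher. With 1 array left out, 0 to 3 were lower and 0 to 3 higher. The counts past 1.7-fold were then 4 to 6 lower and 3 to 4 higher. Among the brighter 50% these were 3 lower and 1 higher, and at 2-fold 1 lower and 0 higher. The median change of LINC symbols above 3 lay between -0.0153 (without GapmeR#4 replicate 3) and 0.0270. NRAD1, too dim to be among the brighter 50%, kept its sign under the other alternatives, with an adjusted p of 0.0765 to 0.235. LINC01002 passed as well after quantile normalization, median centring and array weights, and LINC01000 with array weights.

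With the replicate number as a block, 0 LINC symbols were lower and 0 higher by limma's adjusted p, and over all transcript clusters 35 were lower and 55 higher. Over all transcript clusters, the deviations of same-numbered arrays from their group means had correlations of -0.0645, -0.00476 and -0.0179. The labels do not say whether same-numbered samples were handled together, and these correlations cannot settle it. What this loss of calls means was not tested. LINC00862 had the lowest adjusted p of the 8 under the block, 0.0553.

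Changes near 0 turned sign, all of them uncalled. LINC00265 had -0.0115 after quantile normalization and -0.0510 as the mean over its transcript clusters. As that mean LINC00987 had 0.131 and LINC00933 had 0.0787. With 1 array left out, the changes ran from -0.0868 to 0.122 for LINC00265, -0.0371 to 0.0214 for LINC00987, -0.101 to 0.00806 for LINC00933, -0.101 to 0.0546 for LINC00511, -0.0863 to 0.00594 for LINC00839, -0.166 to 0.00929 for LINC00707 and -0.200 to 0.0333 for LINC00964.

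Dim signals limit part of the class: 177 of 458 symbols stayed at or below 3, where changes are compressed and a missing call does not show that levels were equal.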

Other observations

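Some transcript clusters without a symbol in the platform annotation are given a LINC symbol only by a supplementary table of the study, which chose them for regulation on these same arrays, so their direction is no independent evidence and they were not counted above. There were 12, for 7 symbols, of which 10 were lower and 2 higher after GapmeR#4. LINC01187 had 5.23, 5.24 and 4.96 on the GapmeR#4 arrays and 6.67, 6.40 and 6.46 on the control arrays, without overlap (log2 change -1.37). That is a slightly larger decrease than that of LINC01235, which had -1.35. LINC01057 had 4 transcript clusters, all lower, with the largest change at -1.16, and LINC01184 had -0.92. LINC01293 had 5.58, 5.25 and 5.91 on the GapmeR#4 arrays and 3.64, 3.79 and 3.67 on the control arrays (log2 change 1.88), a larger increase than that of any of the 458 LINC symbols. LINC01363 had a log2 change of 1.03.

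LINC00152, listed there with 3 transcript clusters that changed by -0.85 to -1.01 on the log2 scale, is an older name of CYTOR. The transcript cluster that the annotation names CYTOR had means of 7.85 in GapmeR#4 cells and 8.11 in control cells, a change of -0.26 (adjusted p = 0.236 from limma), and MIR4435-2HG, a gene with a closely related sequence, had -0.43 (adjusted p = 0.0652). The size of the change at this gene therefore depends on the transcript cluster, and related copies can share signal.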
